A study of Mus musculus with 6 samples.

Results

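Fatty acid beta-oxidation and ketone body formation were followed in the liver of pregnant mice through 35 genes among the 56691 of the deposited table. The genes were listed by their role in the pathway, at a time when earlier results of these data were known, and their symbols were matched to the Ensembl identifiers of the table. They cover acyl-CoA activation (6 genes), the carnitine shuttle (5), the acyl-CoA dehydrogenases (5), the later mitochondrial steps (5), the isomerases and reductases of unsaturated fatty acids (4), peroxisomal enzymes (5), the electron transfer flavoprotein and its dehydrogenase (3) and ketone body enzymes (2). All 35 were found, and 34 had a mean FPKM of at least 1 over the 6 libraries and were tested. The exception was *Acsm3*, a mitochondrial acyl-CoA synthetase for medium chains, which stood at 0.45, 0.68 and 0.77 FPKM in KPF replicates 1, 2 and 3 and at 0.42, 0.48 and 2.36 FPKM in WPF replicates 2, 3 and 4. FPKM are read counts relative to exonic length and library total.

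The study asked what hepatic ChREBP, the sugar-responsive transcription factor encoded by *Mlxipl*, does to insulin sensitivity and lipid metabolism in pregnancy. RNA of whole liver was sequenced from 3 KPF dams (hChrebp-KO, replicates 1 to 3) and 3 WPF dams (replicates 2 to 4). All 6 dams were pregnant and ate a high-fructose diet, HFrD, with 10 kcal% of fat and 70% of fructose, from mating on Day 0 until they were killed on Day 17. The labels give the WPF genotype as WT, while the methods of the study describe *Chrebp* flox/flox mice without Cre, so that the floxed allele was carried by the KPF and the WPF dams alike. In KPF the floxed exon 2 of *Mlxipl* is removed, by design, by Cre under the albumin promoter (Alb-Cre), which is active in hepatocytes and leaves the gene intact in the other cells of the liver. The Cre transgene was present in KPF alone, and its own effect and that of the deletion cannot be told apart. The floxed line was made in fertilized eggs of C57BL/6J mice, and the age of the dams was not given in the sources used here.

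Long-chain fatty acids are first joined to coenzyme A, passed into mitochondria by carnitine, and shortened there in cycles of dehydrogenation, hydration, a further dehydrogenation and thiolysis. Peroxisomes start the shortening of very long and branched chains, and the electrons of the first mitochondrial step enter the respiratory chain through the electron transfer flavoprotein. The liver turns part of the resulting acetyl-CoA into ketone bodies, which it exports because it has little of the enzyme that uses them. Malonyl-CoA, the product of acetyl-CoA carboxylase and a precursor of new fatty acids, blocks the carnitine step, and the nuclear receptor PPARalpha drives transcription of many genes of the pathway.

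The libraries were not alike in ways that touch these genes. The counted reads were 10694496 to 11567941 in KPF and 12988865 to 14496630 in WPF. *Mlxipl* was at 182, 709 and 860 CPM in KPF against 974, 1280 and 891 CPM in WPF, where CPM are read counts brought to a common library size by TMM scaling (exact two-sided permutation test, p = 0.1, the smallest that 3 dams against 3 allow). The reads were counted over the gene and not by exon, so that they do not measure the deletion itself. In KPF replicate 2 the 6 striated muscle markers summed to 3100 CPM against 4.75 to 10.6 CPM in the other 5 libraries. The 8 stellate and fibroblast markers summed to 177 to 720 CPM in KPF and to 107 to 134 CPM in WPF. Of the 8, 5 (62.5%) were higher in KPF at an unadjusted p under 0.05 in edgeR, against 6.29% of all tested genes. Among the 5 was *Des*, at 493 CPM in KPF replicate 2, the library with the striated muscle markers. Its log2 fold change was 4.37, or 1.85 without that library. *Lrat* went the other way, with a log2 fold change of -0.35. Adipocyte markers summed to 2.14 to 23.7 CPM in KPF and to at most 0.427 CPM in WPF, with *Lep* at 0 in every library. The 9 hepatocyte markers summed to 94500, 90000 and 116000 CPM in KPF and to 189000, 116000 and 115000 CPM in WPF. *Alb*, at 65800 to 151000 CPM, made up most of each sum. Of the 9, 7 had log2 fold changes below 0 and 2 above. WPF replicate 4 was unlike its own group in the 12 ChREBP target genes, which summed to 3160 CPM there, to 18900 and 22800 CPM in WPF replicates 2 and 3, and to 3330 to 4650 CPM in KPF. The part of these differences between libraries in the values of the oxidation genes was not tested.

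None of the 34 tested genes differed between KPF and WPF at an adjusted p under 0.05 (quasi-likelihood test of edgeR, Benjamini-Hochberg adjustment over 10866 genes). The same held for all genes, of which 0.0% passed, with a smallest adjusted p of 0.397 in edgeR. At an unadjusted p under 0.05, 3 of the 34 were lower in KPF (*Acsl5*, *Acsl3* and *Acad11*) and 0 were higher. This is 8.82% of the tested members, against 10.8% of all tested genes, of which 4.54% were lower and 6.29% higher. The median log2 fold change of the 34 genes was -0.08, with 18 below 0 and 16 above, and the median of all tested genes was 0.02. The values of the groups did not overlap in 4 genes that were lower in KPF (*Acsl5*, *Crat*, *Acads* and *Acad11*) and in 1 that was higher (*Crot*). These are 11.8% and 2.94% of the tested members, while among all tested genes 8.15% were lower and 7.55% higher without overlap. DESeq2 called 0 of the 34 at an adjusted p under 0.05, and 156 of the 10866 genes. In RNA of whole liver, fewer cells of a type and less RNA per cell cannot be told apart.

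**Figure D1:**
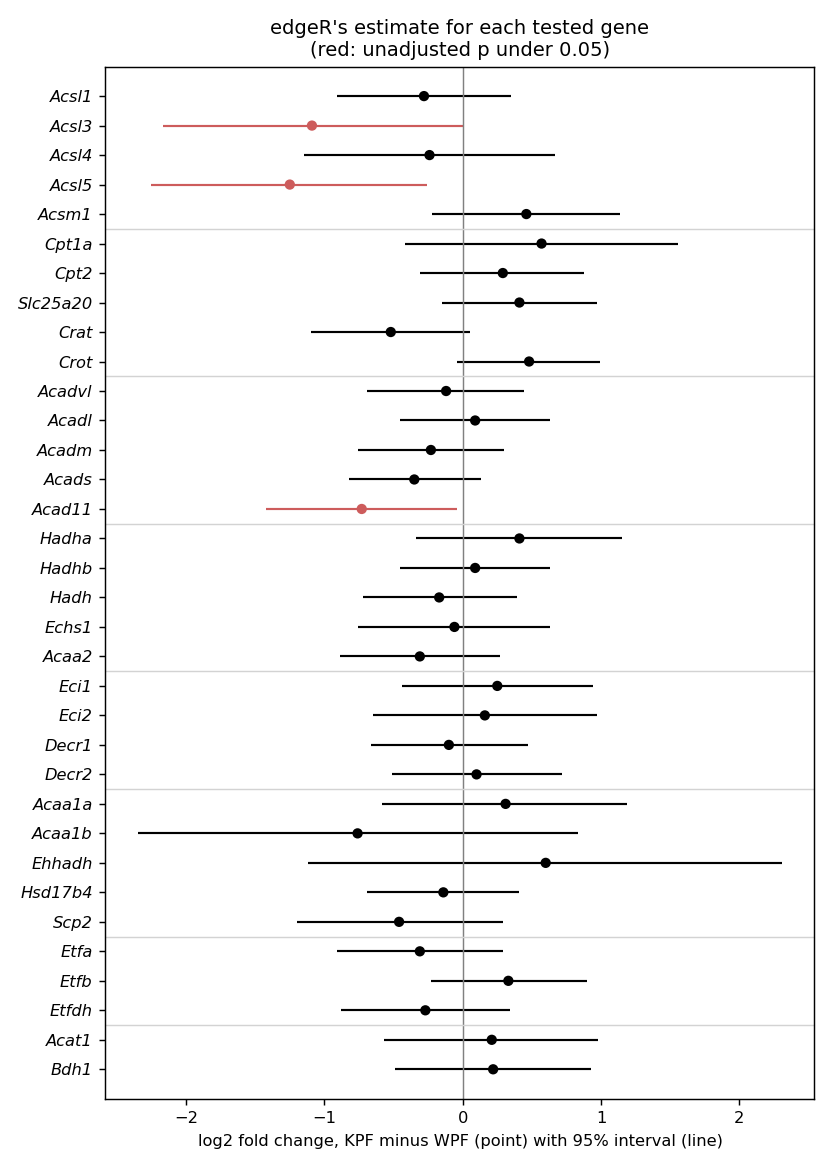
Each point is the log2 fold change of 1 tested gene (x axis, KPF minus WPF, 3 dams each) from edgeR's quasi-likelihood fit, the line is its 95% interval, and grey lines part the 8 role groups. Points lie on both sides of 0, between -1.25 for *Acsl5* and 0.60 for *Ehhadh*, and the intervals of *Acsl5*, *Acsl3* and *Acad11*, in red, end below 0.

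The precision of these estimates set what could be seen. The tested members had between 143 and 13307 reads in a library, and the median distance from an estimate to the end of its 95% interval was 0.623 on the log2 scale. The interval lay inside a 2-fold change in both directions for 22 of the 34 genes and inside a 1.5-fold change for 0, so that a 1.5-fold change in one direction or the other lay within the interval of every gene at this number of dams. The highest library was within 2-fold of the lowest for 18 genes, and the median ratio of highest to lowest was 1.94, against 2.03 over all tested genes. Only *Acsl3*, *Acsl5*, *Acaa1b* and *Ehhadh* exceeded 3-fold.

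**Figure D2:**
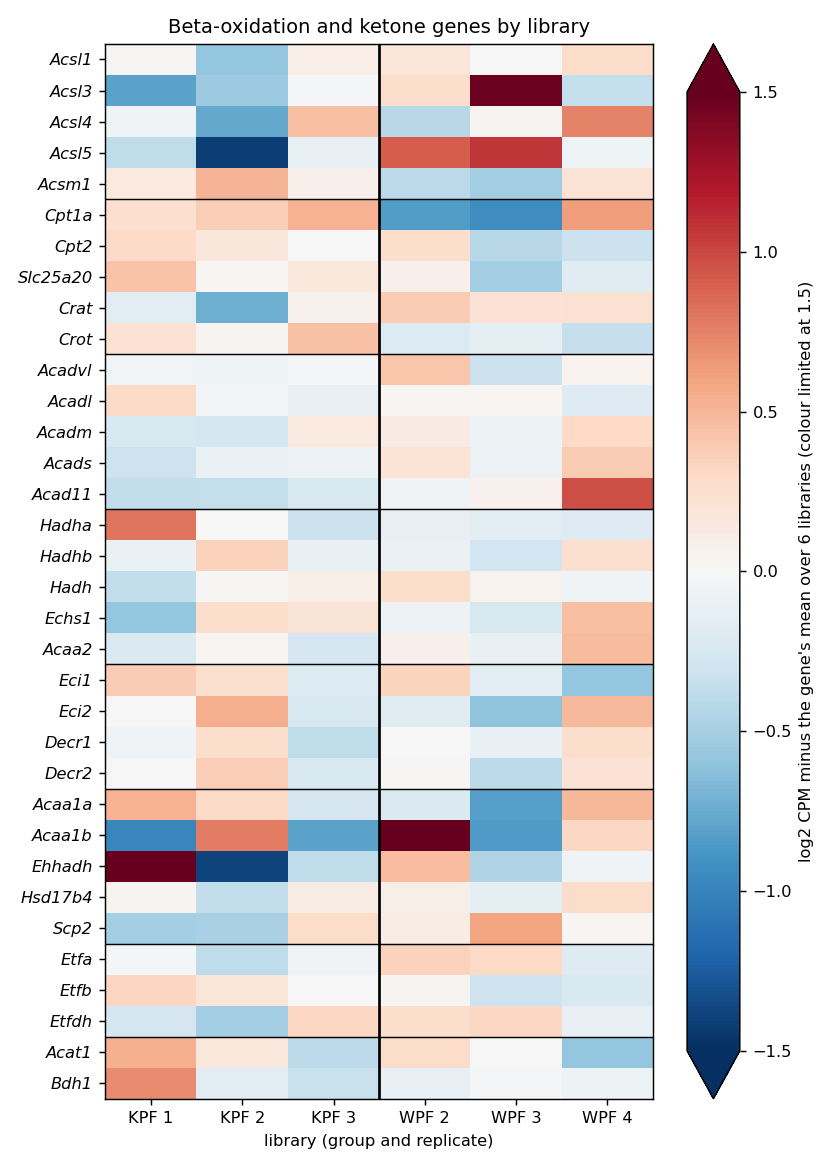
Colour gives the log2 CPM of each tested gene (rows, in role groups) in each library (columns) minus the mean of the gene over the 6 libraries, limited at 1.5. The left 3 columns (KPF) and the right 3 (WPF) differ in *Acsl5*, *Crat* and *Crot*, and single libraries stand out in *Ehhadh* (KPF replicate 1), *Acaa1b* (WPF replicate 2), *Acsl3* (WPF replicate 3) and *Acad11* (WPF replicate 4).

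Upstream sequences are shown for genes whose values are described in detail next: *Acsl5* and *Cpt1a*, which separated WPF replicates 2 and 3 from the other libraries in opposite directions, *Ehhadh*, which varied most between dams, and the stretch between *Hadha* and *Hadhb*, which lie head to head. The sequences are those of RefSeq in GRCm38.p6, written 5′ to 3′ on the strand of the gene up to the base before the start of transcription, with matches to the CCAAT box or to the receptor half-site AGGTCA, on either strand, in capitals. *Acsl5* (chr19:55253119-55253368, plus strand) has CCAAT with its first base 117 bases before the start. *Cpt1a* (chr19:3323051-3323300, plus strand) has the half-site on the other strand, read as TGACCT, 94 bases before the start, and CCAAT 19 bases before it. *Ehhadh* (chr16:21787835-21788084, minus strand) has CCAAT on the other strand, read as ATTGG, 38 bases before the start.
Acsl5: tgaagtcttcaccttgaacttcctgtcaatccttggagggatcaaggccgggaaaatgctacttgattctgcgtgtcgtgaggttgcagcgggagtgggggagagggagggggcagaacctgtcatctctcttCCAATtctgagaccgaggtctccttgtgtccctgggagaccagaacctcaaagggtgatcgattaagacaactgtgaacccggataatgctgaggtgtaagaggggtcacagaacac
Cpt1a: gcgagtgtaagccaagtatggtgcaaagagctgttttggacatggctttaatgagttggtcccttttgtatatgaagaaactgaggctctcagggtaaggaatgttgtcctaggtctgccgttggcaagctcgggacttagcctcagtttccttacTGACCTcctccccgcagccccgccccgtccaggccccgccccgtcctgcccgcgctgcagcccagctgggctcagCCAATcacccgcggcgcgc
Ehhadh: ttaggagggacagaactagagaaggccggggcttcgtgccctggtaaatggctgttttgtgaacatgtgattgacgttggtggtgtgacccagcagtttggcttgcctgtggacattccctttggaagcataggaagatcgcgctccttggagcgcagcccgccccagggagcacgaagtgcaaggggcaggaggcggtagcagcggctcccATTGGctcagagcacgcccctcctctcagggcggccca
Between *Hadha* and *Hadhb* the 2 RefSeq start sites are 272 bases apart, and the 228 bases common to both upstream windows (chr5:30155003-30155230, written on the plus strand, that of *Hadhb*) hold neither motif.
Hadha-Hadhb: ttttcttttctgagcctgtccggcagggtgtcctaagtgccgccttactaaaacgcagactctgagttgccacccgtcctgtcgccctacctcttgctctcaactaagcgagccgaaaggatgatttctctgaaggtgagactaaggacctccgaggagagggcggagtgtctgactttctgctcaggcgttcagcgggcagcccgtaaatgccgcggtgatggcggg

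Of the 35 genes, 30 had a promoter window of 300 bases (250 before and 50 after the start) in the RefSeq table. A direct repeat of the half-site AGGTCA with 1 base of any kind between (DR1), the usual form of the PPARalpha response element, was in 0 of the 30 windows and in 0.0481% of the windows of 27025 genes. The E-box CACGTG was in 0 of the 30 and in 8.09% of all. The single half-site AGGTCA, which is contained in the direct repeat, was in 6 of the 30 (20.0%, against 18.1% of all), namely *Acadm*, *Acadvl*, *Acsm1*, *Cpt1a*, *Echs1* and *Scp2*. CCAAT was in 16 of the 30 (53.3%, against 41.1% of all). Both strands were searched, and the half-site and CCAAT were added after the first 2 motifs had been counted.

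Acyl-CoA activation held the lowest log2 fold changes of the 34 genes. *Acsl5* (ENSMUSG00000024981, chromosome 19, 55240370 to 55286152 in GRCm39), a long-chain acyl-CoA synthetase of mitochondria and endoplasmic reticulum, was at 122, 59.7 and 147 CPM in KPF replicates 1 to 3 and at 298, 334 and 152 CPM in WPF replicates 2 to 4. The groups did not overlap, but WPF replicate 4 was close to the highest KPF library. The log2 fold change was -1.25 (standard error 0.43, unadjusted p = 0.0202, adjusted p = 0.430 in the quasi-likelihood test of edgeR). It was -1.15 without WPF replicate 2 (unadjusted p = 0.0590, adjusted p = 0.753 in edgeR) and -1.04 without WPF replicate 3 (unadjusted p = 0.0705, adjusted p = 0.823 in edgeR), whereas it was -1.54 without WPF replicate 4 (unadjusted p = 0.00707, adjusted p = 0.276 in edgeR). *Acsl5* is the one gene of the 34 that was at an unadjusted p under 0.05 in edgeR both without KPF replicate 2 (log2 fold change -0.97) and without WPF replicate 4.

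*Acsl3*, the synthetase of lipid droplets and endoplasmic reticulum, was at 18.0, 21.6 and 30.7 CPM in KPF against 37.7, 87.0 and 24.5 CPM in WPF. The groups overlapped, with WPF replicate 4 between KPF replicates 2 and 3, and WPF replicate 3 stood far above all others. Its log2 fold change in KPF was -1.09 (standard error 0.47, unadjusted p = 0.05 after rounding, just under the threshold, adjusted p = 0.461 in edgeR), and -0.41 without WPF replicate 3. *Acsl1*, the main hepatic long-chain synthetase, had a mean CPM of 352 ± 82.4 in KPF and 427 ± 41.4 in WPF (± SD, n = 3, as for all such values here), a log2 fold change of -0.28. *Acsl4*, which prefers arachidonic acid, had a log2 fold change of -0.24. *Acsm1*, a medium-chain synthetase of the mitochondrial matrix, was at 395, 505 and 374 CPM in KPF against 270, 247 and 409 CPM in WPF, a log2 fold change of 0.46, or 0.71 without WPF replicate 4 (unadjusted p = 0.0469 in edgeR). In *Acsm1*, *Acsl5* and *Acsl3* alike, WPF replicate 4 lay on the KPF side of the other WPF libraries.

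The make-up of the long-chain synthetases was compared per exonic length of the gene, as the share of each gene in the summed FPKM of *Acsl1*, *Acsl3*, *Acsl4* and *Acsl5*. *Acsl5* made up 35.8%, 27.8% and 36.8% of the sum in KPF and 53.6%, 53.1% and 35.4% in WPF. The difference in means was -13.9 percentage points, and the groups overlapped through WPF replicate 4 (exact two-sided permutation test, p = 0.3). *Acsl1* took up most of the rest, with 52.6%, 55.6% and 47.8% in KPF and 36.1%, 28.2% and 50.3% in WPF (exact two-sided permutation test, p = 0.2). By FPKM, *Acsl5* was thus the largest member of the family in WPF replicates 2 and 3, and *Acsl1* was the largest in the other 4 libraries. This order rests on the exonic lengths, 10483 bases for *Acsl1* and 4864 for *Acsl5*, which are not those of a single transcript. By CPM, *Acsl1* was above *Acsl5* in WPF replicate 2 (433 against 298) and in WPF replicate 3 (383 against 334) as well.

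**Figure D3:**
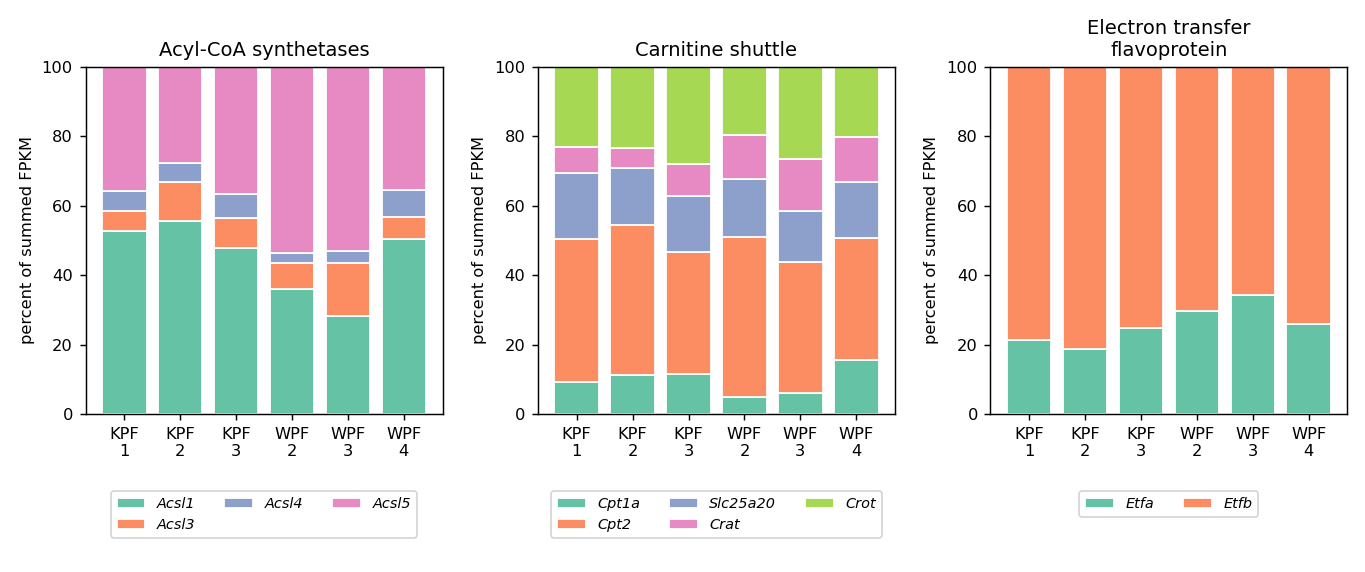
Stacked bars give the percent of the summed FPKM (y axis) that each gene takes within 3 families (panels) in each of the 6 libraries (x axis). WPF replicates 2 and 3 have *Acsl5* shares of 53.6% and 53.1%, while WPF replicate 4 has 35.4%, within the range of KPF, and *Crat* and *Etfa* have smaller shares in every KPF library than in any WPF library.

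In the carnitine shuttle, 4 of the 5 genes had log2 fold changes above 0 and none of the 5 had an unadjusted p under 0.05 in edgeR. *Cpt1a* (ENSMUSG00000024900, chromosome 19, 3372334 to 3435733 in GRCm39), the outer membrane transferase that malonyl-CoA blocks and the point of control of the pathway, was at 74.3, 80.9 and 89.6 CPM in KPF against 35.1, 32.9 and 96.8 CPM in WPF. The KPF libraries were close to each other, WPF replicates 2 and 3 lay below all of them, and WPF replicate 4 was the highest of the 6. Its log2 fold change in KPF was 0.57 (standard error 0.43, unadjusted p = 0.221, adjusted p = 0.646 in edgeR). Without WPF replicate 4 it was 1.25 (unadjusted p = 0.00135, adjusted p = 0.184 in edgeR), in a comparison where 11.0% of all tested genes had an unadjusted p under 0.05.

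*Crat*, the carnitine acetyltransferase that exports surplus acetyl groups, was at 43.3, 29.1 and 50.5 CPM in KPF against 63.3, 56.5 and 56.9 CPM in WPF. The groups did not overlap, and the lowest value was that of KPF replicate 2 (log2 fold change -0.52, standard error 0.25, unadjusted p = 0.0688, adjusted p = 0.487 in edgeR). Without that library its log2 fold change was -0.34 (unadjusted p = 0.178 in edgeR). *Crot*, the octanoyltransferase that hands chains shortened in peroxisomes to mitochondria, went the other way with 133, 118 and 155 CPM in KPF and 99.3, 103 and 90.0 CPM in WPF. Here too the groups did not overlap (log2 fold change 0.48, standard error 0.22, unadjusted p = 0.0656, adjusted p = 0.480 in edgeR). *Cpt2*, the inner membrane transferase, had 94.9 ± 9.12 CPM in KPF and 77.7 ± 20.9 CPM in WPF, and *Slc25a20*, the carrier of acylcarnitines, had 83.7 ± 12.1 and 63.2 ± 12.5 CPM. Their log2 fold changes were 0.29 and 0.41, and the groups overlapped in both.

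Per length, *Cpt2* held the largest share of the summed FPKM of the 5 carnitine genes in every library, from 35.0% to 45.9%. The share of *Crat* was 7.60%, 5.83% and 9.21% in KPF and 12.7%, 14.8% and 13.0% in WPF, without overlap (exact two-sided permutation test, p = 0.1, the smallest possible). *Cpt1a* took 9.22%, 11.4% and 11.5% in KPF and 4.96%, 6.10% and 15.6% in WPF (exact two-sided permutation test, p = 0.6). *Crat* was not named by the rule for genes described by library and was added, with *Acads*, after its values were seen.

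**Figure D4:**
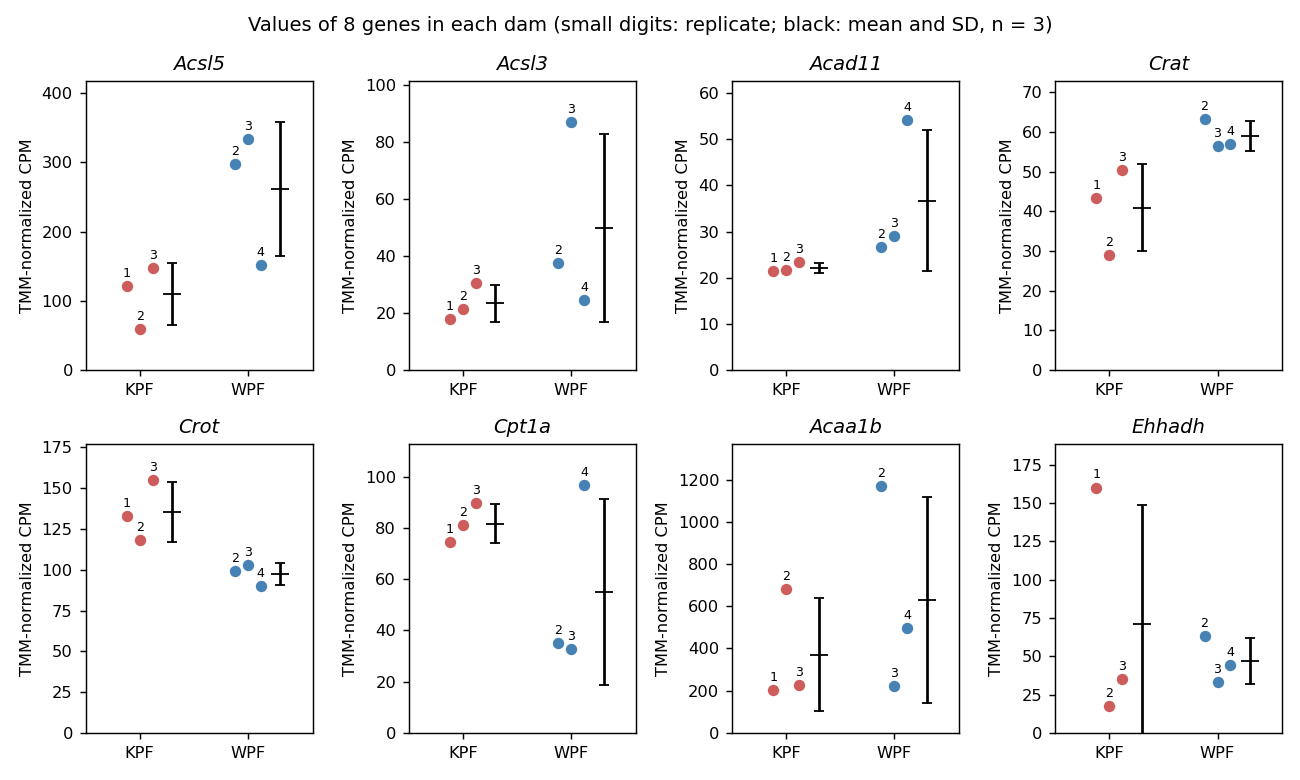
Points are the TMM-normalized CPM (y axes, each from 0) of 8 genes (panels) in each KPF and WPF dam, with the replicate number above the point and mean and SD (n = 3) in black. KPF and WPF points do not overlap in *Acsl5*, *Acad11*, *Crat* and *Crot*, WPF replicate 4 lies apart from WPF replicates 2 and 3 in *Cpt1a*, and the lower SD bar of *Ehhadh* in KPF runs past 0 and ends at the axis.

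The acyl-CoA dehydrogenases carry out the first step of each mitochondrial cycle, and 4 of the 5 had log2 fold changes below 0. *Acad11*, which oxidizes long and very long chains, was at 21.4, 21.6 and 23.4 CPM in KPF against 26.7, 29.0 and 54.2 CPM in WPF. The groups did not overlap, and most of the difference came from WPF replicate 4. Its log2 fold change in KPF was -0.73 (standard error 0.30, unadjusted p = 0.0400, adjusted p = 0.453 in edgeR), and -0.34 without WPF replicate 4 (unadjusted p = 0.133 in edgeR). Leaving out any 1 KPF library kept the log2 fold change of *Acad11* between -0.77 and -0.71, with unadjusted p of 0.0687 to 0.0885 in edgeR. *Acads*, for short chains, did not overlap either, but only just: its highest KPF value was 16.1 CPM and its lowest WPF value 16.2 CPM (log2 fold change -0.35, unadjusted p = 0.131 in edgeR).

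*Acadm*, the medium-chain enzyme whose loss in people causes fasting intolerance, was at 63.9, 62.7 and 83.1 CPM in KPF against 81.6, 71.1 and 92.7 CPM in WPF. The groups overlapped through KPF replicate 3 (log2 fold change -0.23, standard error 0.23, adjusted p = 0.732 in edgeR). *Acadl*, for long chains, had 177 ± 27.8 CPM in KPF and 166 ± 14.3 CPM in WPF, and *Acadvl*, for very long chains, had 68.6 ± 0.976 and 74.8 ± 18.9 CPM. Their log2 fold changes were 0.09 and -0.12, and both intervals lay inside a 2-fold change.

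The later mitochondrial steps had log2 fold changes between -0.31 (*Acaa2*) and 0.41 (*Hadha*). *Hadha* (chromosome 5, 30323302 to 30360160 in GRCm39, minus strand) encodes the alpha subunit of the trifunctional protein, with the hydratase and long-chain dehydrogenase activities. It was at 223, 128 and 102 CPM in KPF against 117, 113 and 112 CPM in WPF. KPF replicate 1 stood apart, and without it the log2 fold change was 0.02 in place of 0.41 (standard error 0.32, adjusted p = 0.664 in edgeR). *Hadhb*, the beta subunit with the thiolase activity, starts 85 bases from *Hadha* on the opposite strand in the table, and was at 35.2, 47.9 and 34.7 CPM in KPF against 35.2, 30.9 and 44.6 CPM in WPF. The high value of *Hadha* in KPF replicate 1 had thus no counterpart in *Hadhb*. The sequence shown above lies between the RefSeq starts, 272 bases apart in GRCm38.p6, and not between the starts of the table. *Hadha* made up 82.7% of the summed FPKM of the pair in that library and 65.4% to 73.5% in the other 5. Whether the reads were counted by strand was not given in the sources used here.

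*Hadh*, the short-chain hydroxyacyl-CoA dehydrogenase, had a log2 fold change of -0.17, and *Echs1*, the short-chain enoyl-CoA hydratase, of -0.06. *Acaa2*, the mitochondrial thiolase, had 135 ± 14.4 CPM in KPF and 167 ± 35.3 CPM in WPF, with WPF replicate 4 the highest at 206 CPM. The isomerases and reductases that prepare unsaturated chains had log2 fold changes from -0.10 to 0.25. *Eci1*, the mitochondrial enoyl-CoA isomerase, had the smallest p of the 4 and was at 78.2, 70.8 and 52.0 CPM in KPF against 75.7, 53.4 and 40.0 CPM in WPF. The groups overlapped widely (log2 fold change 0.25, standard error 0.29, adjusted p = 0.773 in edgeR). For *Eci2*, a second isomerase found in peroxisomes, and for the dienoyl-CoA reductases *Decr1* of mitochondria and *Decr2* of peroxisomes, the values were 0.16, -0.10 and 0.10.

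Of the peroxisomal enzymes, *Ehhadh* and *Acaa1b* had the widest ranges between dams of the 34 genes. *Ehhadh* (ENSMUSG00000022853), the bifunctional hydratase and dehydrogenase, was at 160, 17.5 and 35.1 CPM in KPF against 63.1, 33.5 and 44.3 CPM in WPF, 9.17-fold between the highest and the lowest library. Both extremes were in KPF, and KPF replicate 2, the lowest, was the library with striated muscle markers. The fit gave 0.60 as the log2 fold change (standard error 0.74, adjusted p = 0.783 in edgeR) and -0.84 without KPF replicate 1 (unadjusted p = 0.0782 in edgeR), so that the sign rested on that library. KPF replicate 1 was the highest library for 10 of the 34 genes, among them *Ehhadh*, *Hadha*, *Acat1* and *Bdh1*, and the lowest for 7. WPF replicate 4 was the highest for 10 as well, and the lowest for 4.

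*Acaa1b* (chromosome 9, 118977091 to 118986161 in GRCm39), a peroxisomal thiolase, was at 204, 681 and 229 CPM in KPF against 1170, 223 and 499 CPM in WPF. Each group held low and high dams, and the highest KPF value was that of replicate 2. The fit gave -0.76 as the log2 fold change (standard error 0.68, adjusted p = 0.699 in edgeR), -1.55 without KPF replicate 2 (unadjusted p = 0.0469 in edgeR) and 0.04 without WPF replicate 2. *Acaa1a*, its paralog 183 kb away on the same chromosome, was at 188, 161 and 110 CPM in KPF against 113, 74.0 and 185 CPM in WPF. The pair is closely related in sequence, and how reads that match both genes were counted was not given, so that each value alone is uncertain. *Acaa1b* made up 70.9%, 90.5% and 82.4% of the summed FPKM of the pair in KPF and 95.9%, 87.1% and 85.8% in WPF (exact two-sided permutation test, p = 0.3).

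*Scp2*, the sterol carrier protein whose longer form is a thiolase for branched chains, was at 324, 329 and 557 CPM in KPF against 497, 695 and 470 CPM in WPF. KPF replicate 3 lay within the WPF range (log2 fold change -0.46, standard error 0.32, adjusted p = 0.621 in edgeR), and without it the log2 fold change was -0.76 (unadjusted p = 0.0464 in edgeR). *Hsd17b4*, the bifunctional protein for branched chains and bile acid precursors, had 81.0 ± 13.7 CPM in KPF and 89.3 ± 13.1 CPM in WPF, a log2 fold change of -0.14.

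The electron transfer flavoprotein carries electrons from the dehydrogenases, and its 2 subunits leaned in opposite directions. *Etfb* was at 502, 457 and 401 CPM in KPF against 414, 323 and 343 CPM in WPF (log2 fold change 0.33, standard error 0.24, adjusted p = 0.633 in edgeR). *Etfa* had 197 ± 25.9 CPM in KPF and 244 ± 47.3 CPM in WPF, a log2 fold change of -0.31. In each gene alone the groups overlapped. *Etfa* as a share of the summed FPKM of the pair was 21.3%, 18.8% and 24.9% in KPF and 29.7%, 34.4% and 26.0% in WPF, without overlap (exact two-sided permutation test, p = 0.1, the smallest possible; the pair was added after the values were seen). *Etfdh*, which passes the electrons on to ubiquinone, had a log2 fold change of -0.27.

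Ketone body enzymes did not separate the groups. *Bdh1*, which interconverts acetoacetate and beta-hydroxybutyrate, was at 113, 62.1 and 54.8 CPM in KPF against 63.8, 68.1 and 65.8 CPM in WPF. KPF replicate 1 was high and the other KPF libraries were below all WPF libraries (log2 fold change 0.22, standard error 0.31, adjusted p = 0.809 in edgeR). *Acat1*, the mitochondrial acetoacetyl-CoA thiolase, was at 163, 125 and 85.6 CPM in KPF against 136, 113 and 74.9 CPM in WPF, a log2 fold change of 0.21, or -0.01 without WPF replicate 4. Of the other genes of ketone metabolism, *Oxct1*, the enzyme of ketone use that hepatocytes nearly lack, was at 5.60, 34.2 and 2.53 CPM in KPF against 1.49, 2.14 and 2.97 CPM in WPF. Its log2 fold change was 2.67 with all libraries and 0.87 without KPF replicate 2, the library with striated muscle markers (unadjusted p = 0.0201 and 0.124 in edgeR, a gene named after its values were seen).

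The other genes of oxidation and ketone metabolism, 59 on 4 lists, were set beside the 35. Of the 48 tested, 5 were lower and 3 higher in KPF at an unadjusted p under 0.05, and the median log2 fold change of the 48 was -0.04. The 5 and 3 are 16.7% of the 48, against 10.8% of all tested genes, of which 4.54% were lower and 6.29% higher. The lower ones were *Acss2*, *Acaca*, *Acacb*, *Aacs* and *Slc16a1*, and the higher ones *Acad10*, *Acad12* and *Oxct1*. *Acss2* activates acetate, *Acaca* and *Acacb* make malonyl-CoA, *Aacs* activates acetoacetate for lipid synthesis, and *Slc16a1* carries lactate and ketone bodies. Without KPF replicate 2, 4 were lower and 0 higher, where 4.64% of all tested genes were lower and 5.26% higher. *Slc16a1*, *Acad10*, *Acad12* and *Oxct1* were then no longer at an unadjusted p under 0.05. No gene of the 16 on the list of other peroxisomal oxidation genes was at an unadjusted p under 0.05 in edgeR, and their median log2 fold change was -0.15.

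*Acacb*, the carboxylase at the mitochondrial surface whose malonyl-CoA blocks *Cpt1a*, was at 29.2, 43.0 and 69.5 CPM in KPF against 213, 405 and 135 CPM in WPF. The groups did not overlap (log2 fold change -2.41, standard error 0.50, unadjusted p = 0.00146, adjusted p = 0.415 in edgeR). *Mlycd*, the decarboxylase that removes malonyl-CoA, had 36.3 ± 3.81 CPM in KPF and 49.9 ± 10.6 CPM in WPF, with overlap (log2 fold change -0.46, adjusted p = 0.505 in edgeR). *Aacs* was at 16.8, 18.2 and 11.1 CPM in KPF against 68.4, 78.6 and 18.2 CPM in WPF (log2 fold change -1.84, adjusted p = 0.430 in edgeR). *Acad12*, a dehydrogenase of the same family as *Acad11*, was at 10.8, 11.5 and 8.37 CPM in KPF against 7.09, 6.12 and 4.75 CPM in WPF (log2 fold change 0.77, adjusted p = 0.430 in edgeR), or 0.62 without WPF replicate 4 (unadjusted p = 0.0705 in edgeR).

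Transcriptional regulators of the pathway were led by *Sirt1*, a deacetylase, with 5.99, 9.14 and 9.83 CPM in KPF and 10.9, 14.4 and 15.5 CPM in WPF (log2 fold change -0.71, unadjusted p = 0.0339, adjusted p = 0.438 in edgeR). It was the only 1 of the 10 on its list at an unadjusted p under 0.05 with all libraries. Without WPF replicate 4 its log2 fold change was -0.61 (unadjusted p = 0.0958 in edgeR). In that comparison 0 genes of the list were lower and 2 higher at an unadjusted p under 0.05, *Ppara* and *Creb3l3*. Of all tested genes, 5.13% were then lower and 5.91% higher. *Ppara* itself was at 12.1, 11.7 and 9.54 CPM in KPF against 5.25, 3.77 and 22.8 CPM in WPF, with both extremes in WPF. Its log2 fold change was 0.05 with all libraries (adjusted p = 0.979 in edgeR) and 1.29 without WPF replicate 4 (unadjusted p = 0.00450 in edgeR). This is the pattern over libraries that *Cpt1a* had.

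Of 14 tested PPARalpha target genes outside oxidation, 1 was lower in KPF at an unadjusted p under 0.05 and the median log2 fold change was -0.32 (2 lower and 2 higher without KPF replicate 2, 3 lower without WPF replicate 4). That gene was *Fabp1*, the fatty acid binding protein of hepatocytes, at 1390, 891 and 1780 CPM in KPF against 2690, 2600 and 3510 CPM in WPF (log2 fold change -1.11, unadjusted p = 0.0115, adjusted p = 0.430 in edgeR). *Fgf21*, a hepatic hormone of fasting and sugar intake, was at 6.66, 0.0 and 0.487 CPM in KPF against 19.8, 13.5 and 1.31 CPM in WPF (log2 fold change -2.27, standard error 1.39, adjusted p = 0.576 in edgeR). Of 12 genes of mitochondrial content, 1 was lower, *Cs* for citrate synthase, at 48.2, 95.8 and 53.8 CPM in KPF against 153, 188 and 75.1 CPM in WPF, and the list had a median log2 fold change of -0.25. The count of lower genes on this list was 4 without KPF replicate 2. Of 12 ChREBP target genes, 8 were lower at an unadjusted p under 0.05, with a median of -2.75, led by the pyruvate kinase *Pklr* with 11.3, 18.6 and 12.1 CPM in KPF and 151, 139 and 24.9 CPM in WPF. With all libraries, these lists are read against the 4.54% of all tested genes that were lower and the 6.29% that were higher. The shares of all tested genes were 4.64% lower and 5.26% higher without KPF replicate 2. They were 5.13% lower and 5.91% higher without WPF replicate 4.

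**Figure D5:**
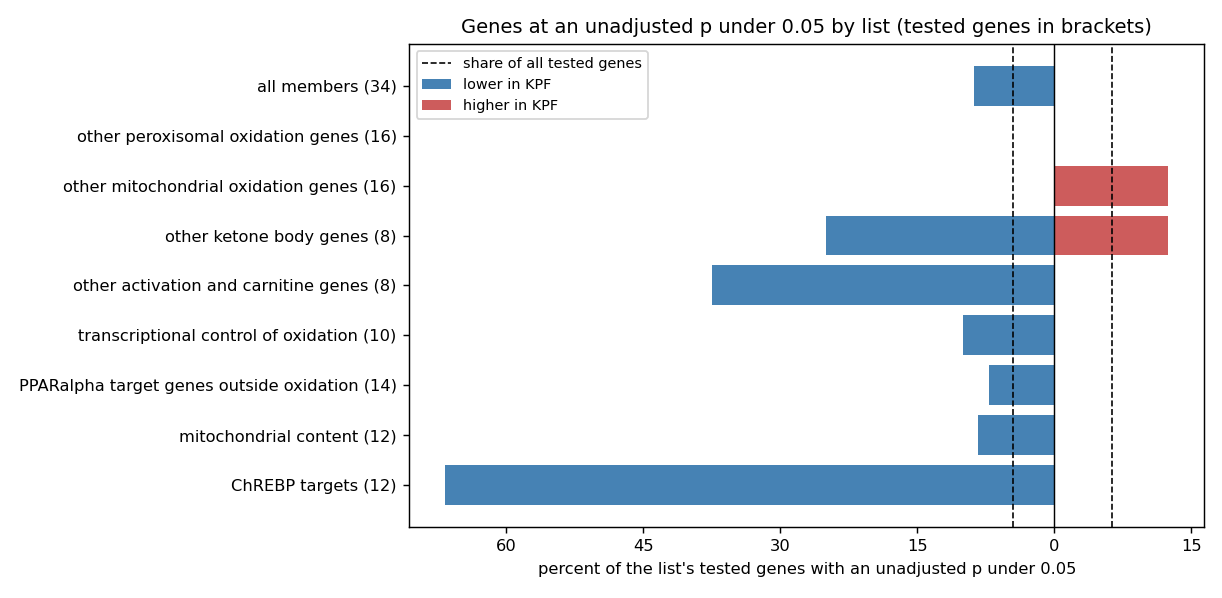
Bars give the percent of the tested genes of each list (number in brackets) that had an unadjusted p under 0.05 in edgeR, lower in KPF to the left of 0 and higher to the right, and the dashed lines mark the shares of all tested genes, 4.54% and 6.29%. The 34 oxidation and ketone genes reach 8.82% lower and 0 higher, while the ChREBP targets reach 66.7% lower.

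Summed over the 35 genes, the share of all counted reads was 0.443%, 0.447% and 0.381% in KPF and 0.481%, 0.461% and 0.550% in WPF, without overlap. After TMM scaling the sums were 4570, 4560 and 4300 CPM in KPF and 5470, 4310 and 4730 CPM in WPF, and the groups overlapped. With library totals in place of TMM the median log2 fold change was -0.22 for the members and -0.12 for all tested genes, so that the members moved with the table as a whole under that scaling.

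Leaving out KPF replicate 2, with its striated muscle markers, left 2 genes lower (*Acsl5* and *Acaa1b*) and 0 higher at an unadjusted p under 0.05, where 4.64% of all tested genes were lower and 5.26% higher (9.9% in all). The median was then -0.09 for the members and -0.01 for all. Leaving out WPF replicate 4 gave 2 lower (*Acsl3* and *Acsl5*) and 2 higher (*Cpt1a* and *Acsm1*), where 5.13% of all tested genes were lower and 5.91% higher (11.0% in all), with medians of 0.01 and 0.03. Which genes of the pathway had an unadjusted p under 0.05 therefore depended on these libraries, and *Acsl5* was the one gene on all 3 lists.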

How the data were processed

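Liver RNA of 3 KPF and 3 WPF dams was analysed, with groups and replicate numbers taken from the sample labels. Poly(A) RNA was sequenced by the authors, who deposited raw read counts per gene with the exonic length and coordinates of each gene. The authors also deposited FPKM, which equalled the count divided by exonic length and counted total in all genes, to within rounding. The submitters' processing notes name cutadapt 1.9.1, HISAT2 2.2.1, HTSeq 0.6.1, DESeq2 and the build GRCm39. The strand setting and the handling of reads that match several genes were not given in the sources used here. The counted reads are the depth, 10694496 to 14496630 per library. Standard errors are the size of the log2 fold change divided by the square root of the F statistic of the quasi-likelihood test. The 95% intervals rest on them and are for the difference between groups, not for the range of single dams.

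Counts of the 10866 genes whose mean FPKM was at least 1 were tested with edgeR 4.0.16 in R 4.3.3, by the quasi-likelihood test with TMM scaling and Benjamini-Hochberg adjustment over all tested genes. An adjusted p under 0.05 passed the test, and unadjusted p under 0.05 were counted beside the share of all tested genes. CPM are TMM-scaled. Shares within families and *Mlxipl* were compared by exact permutation tests (scipy 1.17.1). Scripts were tested on simulated counts. The members and lists were chosen with earlier results of these data known. Symbols came from GENCODE M21 (52073 of 56691 identifiers matched). *Hadhsc* and *Tf* were not matched. Promoters came from RefSeq in GRCm38.p6, a build not mixed with the coordinates of the table, and 30 of 35 genes were found there.

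Values in every library are given for members with an unadjusted p under 0.05, the member with the smallest p in each of the 8 role groups, *Cpt1a*, *Acadm*, *Hadha*, *Acaa1b*, *Ehhadh* and *Bdh1*, then for *Ppara*, *Fgf21*, *Acacb* and *Mlycd* and the gene with the smallest p of each other list. Exceptions are named in the text, and 3 genes that the rule names are not reported here. The alternatives were DESeq2 1.42.0 and its size factors, library totals, other filters, limma 3.58.1 on log2(FPKM + 1) and log2(FPKM + 0.1), leaving out each dam, and the replicate number as a block. Replicate numbers 2 and 3 occur in both groups but stand for different dams.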

Additional observations from a re-analysis of the deposited data

How the results depend on the processing

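None of the 34 genes had an adjusted p under 0.05 in any of the 15 alternatives, and 20 kept the sign of their log2 fold change in all of them. Among the 10866 genes, the main fit gave 0 adjusted, 493 lower and 683 higher (58.1% of calls higher). Library totals gave 750 lower and 376 higher (33.4% higher). Limma gave 275 higher with a pseudocount of 1 (27.3% of calls) and 298 with 0.1. No filter gave 937 lower and 1583 higher with 286 adjusted. A minimum of 5 FPKM gave 232 lower and 293 higher, and DESeq2 gave 156 adjusted. Leaving out each dam gave 249 to 754 lower, 325 to 964 higher and 0 to 5 adjusted. For the members, in place of 3 lower, 0 higher and a median of -0.08, a minimum of 5 FPKM, which removes *Acad11*, *Acsl4* and *Etfdh*, gave 1 lower and a median of 0.09, DESeq2 1 higher (*Crot*), library totals a median of -0.22, and limma -0.19 and -0.21. Leaving out each dam gave 1 to 4 lower, 0 to 2 higher and medians of -0.18 to 0.05, with 1 lower without KPF replicate 1, WPF replicate 2 or WPF replicate 3. The difference in *Acsl5* share was -19.9 to -10.8 points. The causes were not tested beyond what each alternative leaves out.

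The fit with the replicate block gave 1 member higher (*Cpt1a*, log2 fold change 1.32) and 2 lower (*Acsl5* and *Acsl3*) at an unadjusted p under 0.05. Of all tested genes, 685 were higher and 556 lower in that fit. Deviations of same-numbered dams correlated at 0.059 and -0.037. These values rest on single dams of each group and do not decide whether the numbers mark a shared handling. KPF replicate 1 and WPF replicate 4 have no partner, so that they added nothing to the group difference in the block fit. That fit compared KPF replicates 2 and 3 with WPF replicates 2 and 3. Its value for *Cpt1a* is therefore not separate from the log2 fold change of 1.25 without WPF replicate 4.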
